A study of Mus musculus with 6 samples.

Results

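The genes described here are 40 mouse genes of S phase and mitosis, taken by symbol from the count tables: 16 that act in DNA replication and the entry into S phase, and 24 that act in mitosis and cytokinesis. All 40 had a row among the 23329 genes that the tables name, and all 40 passed the filter on low counts that left 13478 genes for testing. RNA was sequenced from 6 primary cultures of small intestinal mesenchyme, the tissue of fibroblasts and smooth muscle beneath the epithelium, all from C57 mice. The E14.5 group held 3 cultures of gut from mid-gestation embryos (day 14.5), and the adult group 3 cultures of gut from grown mice, whose age the labels leave out. Embryonic gut was cut up and adult gut was scraped free of villi, after which both lost their epithelium to chelation and were digested with collagenase and dispase. All cultures received serum and the small molecule Y27632 until confluence and were harvested at passage 2 or 3. No sort is named, so other cell types could be carried along. The labels do not state whether replicates are different animals or how long each culture was confluent, and the letters PBS in the tables' names go unexplained. The question asked of these genes was how far the transcripts of dividing cells differed between embryonic and adult cultures, and from culture to culture.

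Cells prepare to copy their DNA by loading the MCM helicase onto origins in G1, with the help of CDC6 and CDT1. Cyclin E and E2F1 drive the step into S phase, in which PCNA clamps the polymerases and ribonucleotide reductase and thymidylate synthase supply nucleotides. Later, cyclins A and B with CDK1 start mitosis, aurora and polo kinases and kinesins build the spindle, and the checkpoint holds the anaphase-promoting complex until chromosomes are attached. Transcripts of these genes are abundant in cycling cells and scarce in resting ones, so in bulk RNA they are read as a sign of proliferation. Cultured fibroblasts are known to leave the cycle when they become confluent. In bulk samples, fewer cycling cells and less RNA per cycling cell cannot be told apart.

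Transcription of the genes of S phase is classically tied to E2F sites, and that of mitotic genes to the cell cycle genes homology region (CHR) and nearby CCAAT boxes. The 5 promoters that follow, from 250 bases before to 50 after the gene start in RefSeq's table of GRCm38.p6, are shown because their letters differ between the replication and the mitotic genes. Mcm3 and Cdt1 are examples from the first set that hold an E2F match. Plk1, Cdc20 and Mki67 are examples from the second that hold a CHR match. Not every gene of a set holds that match, as the counts after the sequences show. Capitals mark matches on either strand to E2F (TTTCCCGC, TTTGGCGC, TTTCGCGC or TTTGCCGC), CHR (TTTGAA) or CCAAT, none of which overlap in these 5 windows.
Mcm3, chr1:20820263-20820562, minus strand: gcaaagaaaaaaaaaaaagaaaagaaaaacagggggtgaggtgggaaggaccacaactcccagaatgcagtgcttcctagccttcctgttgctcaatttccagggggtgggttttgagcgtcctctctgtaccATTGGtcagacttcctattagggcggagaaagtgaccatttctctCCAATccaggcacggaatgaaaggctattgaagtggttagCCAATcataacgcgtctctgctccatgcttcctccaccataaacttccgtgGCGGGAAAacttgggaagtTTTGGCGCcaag
Cdt1, chr8:122567765-122568064, plus strand: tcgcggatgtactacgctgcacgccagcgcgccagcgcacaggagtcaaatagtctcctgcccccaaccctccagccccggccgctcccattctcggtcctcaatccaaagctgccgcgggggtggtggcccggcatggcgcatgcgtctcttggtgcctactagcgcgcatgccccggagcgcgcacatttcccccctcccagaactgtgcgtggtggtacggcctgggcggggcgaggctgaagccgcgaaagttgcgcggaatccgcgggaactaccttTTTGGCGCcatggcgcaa
Plk1, chr7:122159185-122159484, plus strand: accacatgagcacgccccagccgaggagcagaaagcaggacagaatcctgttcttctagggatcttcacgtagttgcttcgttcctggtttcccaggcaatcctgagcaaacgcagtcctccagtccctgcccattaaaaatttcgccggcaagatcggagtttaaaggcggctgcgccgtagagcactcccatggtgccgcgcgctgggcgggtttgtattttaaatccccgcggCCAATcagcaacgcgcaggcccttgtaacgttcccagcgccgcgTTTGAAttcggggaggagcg
Cdc20, chr4:118437294-118437593, minus strand: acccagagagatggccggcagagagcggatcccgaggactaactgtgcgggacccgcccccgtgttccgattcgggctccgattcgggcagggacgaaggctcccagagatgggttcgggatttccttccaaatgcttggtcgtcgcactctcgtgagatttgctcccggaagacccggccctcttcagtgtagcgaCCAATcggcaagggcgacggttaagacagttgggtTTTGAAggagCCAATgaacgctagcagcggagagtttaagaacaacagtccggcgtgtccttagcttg
Mki67, chr7:135716330-135716629, minus strand: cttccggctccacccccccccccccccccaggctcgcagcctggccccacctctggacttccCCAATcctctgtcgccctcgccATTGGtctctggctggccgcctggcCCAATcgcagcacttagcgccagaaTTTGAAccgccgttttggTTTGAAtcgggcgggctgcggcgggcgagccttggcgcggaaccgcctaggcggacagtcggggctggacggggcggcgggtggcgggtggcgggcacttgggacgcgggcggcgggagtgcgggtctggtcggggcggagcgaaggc
The table held a window for 13 of the 16 replication and 19 of the 24 mitotic genes. An E2F match was found for 6 of the 13 replication genes (46.2%) and for 1 of the 19 mitotic genes (5.26%), against 2.6% of all 27025 genes of the table. A CHR match was found for 1 replication gene (7.69%) and for 14 mitotic genes (73.7%), against 20.2% of all genes. The same 14 mitotic genes also held a CCAAT match, a combination found for 8.97% of all genes. CCAAT, with or without CHR, was found for 8 replication and 17 mitotic genes, against 41.1% of all genes. Among other genes of the same processes, of lists described further on, E2F was matched in 13 of 35 replication and 4 of 43 mitotic genes, and CHR in 8 and 30. A match describes letters and is not evidence that a factor binds there.

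Counts assigned to genes ranged from 30430596 to 32672370 in the E14.5 libraries and from 18850224 to 29903594 in the adult libraries. Adult replicate 2 was the shallowest. Over all 13478 genes, edgeR's quasi-likelihood test called 146 at an adjusted p under 0.05, which is 1.08%. All 12 mesenchymal markers had counts in every library, but their levels were not alike in the groups: edgeR called 1 lower in E14.5 (Pdgfra, for a receptor of fibroblasts), 7 of the 12 reached an unadjusted p under 0.05, and the log2 fold changes of all 12 had a median of -0.57. By DESeq2, 6 of these markers were called, and by limma-voom 0. Pdgfra lay at 2.47 to 4.45 CPM in E14.5, against 29.5 to 81.0 CPM in adult libraries, whereas Vim, for vimentin, lay at 3266 to 3698 CPM in E14.5, against 3049 to 3918 CPM in adult libraries. Of 11 epithelial markers with a row, Epcam had at most 4 counts in any library, while the keratin gene Krt20 had 24.4 to 61.4 CPM in E14.5, against 9.09 to 13.7 CPM in adult libraries (adjusted p = 0.0833 by edgeR; DESeq2 called it). The part of such differences in the levels of the 40 genes was not tested. CPM is the read count relative to the library's TMM-scaled total, so a CPM compares 1 gene between libraries but not different genes, whose counts also scale with length.

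None of the 40 genes differed between E14.5 and adult cultures by the edgeR test. This 0 of 40 is near the share of all genes called, which was 1.08%, with 0.245% higher and 0.838% lower in E14.5. Only Ccne1 had an unadjusted p under 0.05 (1 of 40, against 17.9% of all genes), DESeq2 called 0 of the 40 (1 at an unadjusted p under 0.05) against 10.6% of all genes, and limma-voom called 0 (0 at an unadjusted p under 0.05) against 1.02%. In none of the 40 did all libraries of a group lie above all those of the other, a separation seen for 24.1% of all genes tested. The median log2 fold change, E14.5 over adult, was -0.22 for the 40 genes, 0.22 for the replication genes and -0.42 for the mitotic genes, beside 0.013 for all genes. The replication genes split into 10 positive and 6 negative values, and the mitotic genes into 3 positive and 21 negative. With library size alone these splits were the same. With DESeq2 size factors 22 mitotic genes were negative, Bub1b then standing at -0.0013 rather than 0.00083. The standard errors of the log2 fold changes were wide, from 0.16 to 0.80 with a median of 0.57, beside 0.23 for all genes, so a missed threshold does not show that the groups were alike.

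**Figure D1:**
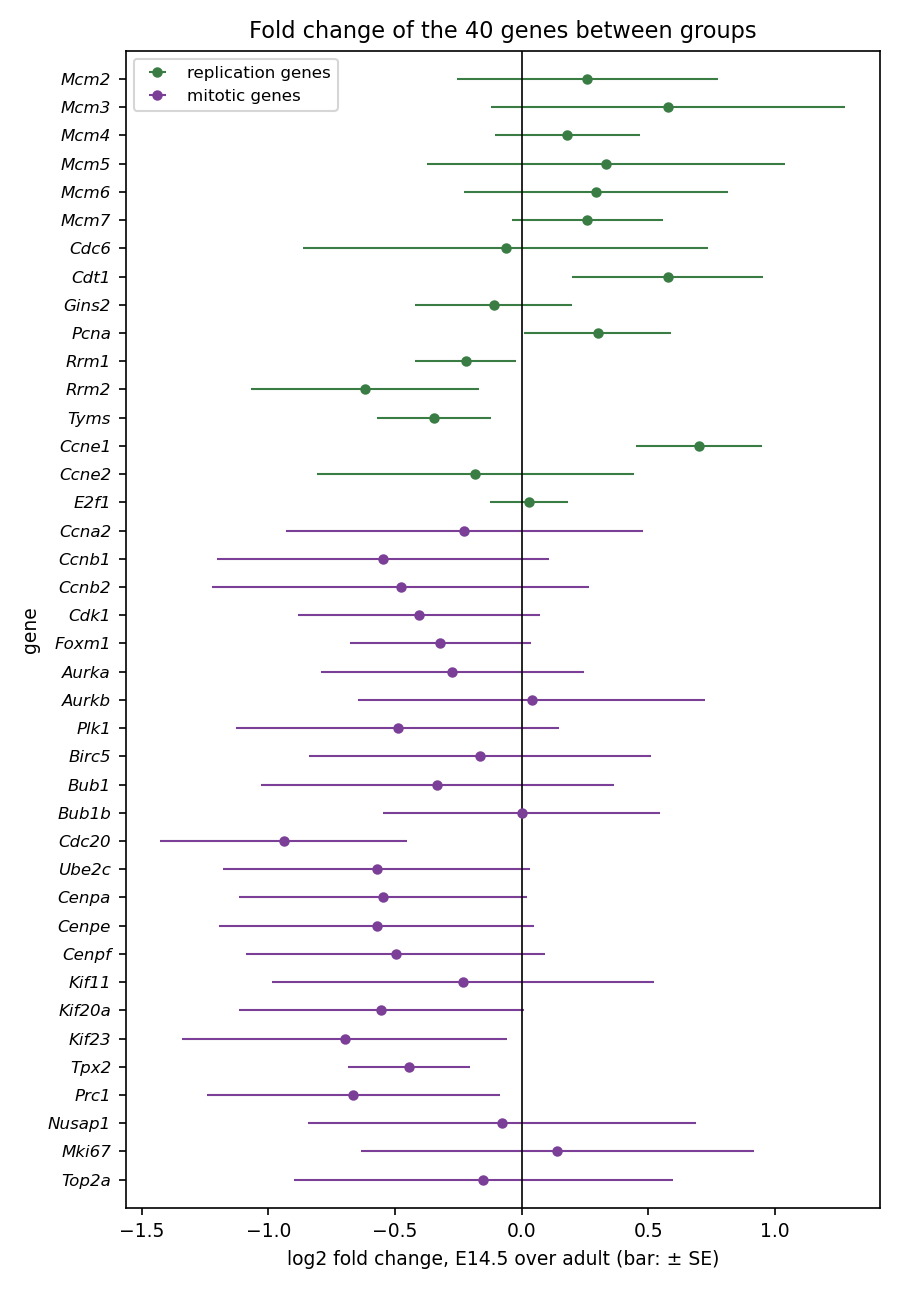
Log2 fold change of each of the 40 genes, E14.5 over adult, on the horizontal axis, with 1 gene per line and bars for ± SE from edgeR. The 21 negative mitotic values and 10 positive replication values lie within a range of -0.94 to 0.70, and no gene passed the test.

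The spread lay instead between cultures of the same group. Added up, the 40 genes gave 813, 534 and 1368 CPM for E14.5 replicates 1, 2 and 3, against 749, 1377 and 915 CPM for adult replicates 1, 2 and 3. E14.5 replicate 3 and adult replicate 2 were thus nearly level at the top, E14.5 replicate 2 was lowest, and the groups overlapped. Group means were 905 ± 425 CPM for E14.5 and 1014 ± 325 CPM for adult cultures (SD, n = 3 each). These sums are shares of reads and weigh long and abundant transcripts more. Counted gene by gene, E14.5 replicate 3 and adult replicate 2 were the 2 highest libraries for 33 of the 40 genes, and E14.5 replicate 2 was the lowest of all 6 for 32. Within E14.5, 37 genes followed the order replicate 3, then 1, then 2, and within the adult group 34 followed the order replicate 2, then 3, then 1. The genes at odds with the usual top pair were Ccne1, E2f1, Rrm1, Rrm2, Cdt1, Cdc20 and Tpx2.

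**Figure D2:**
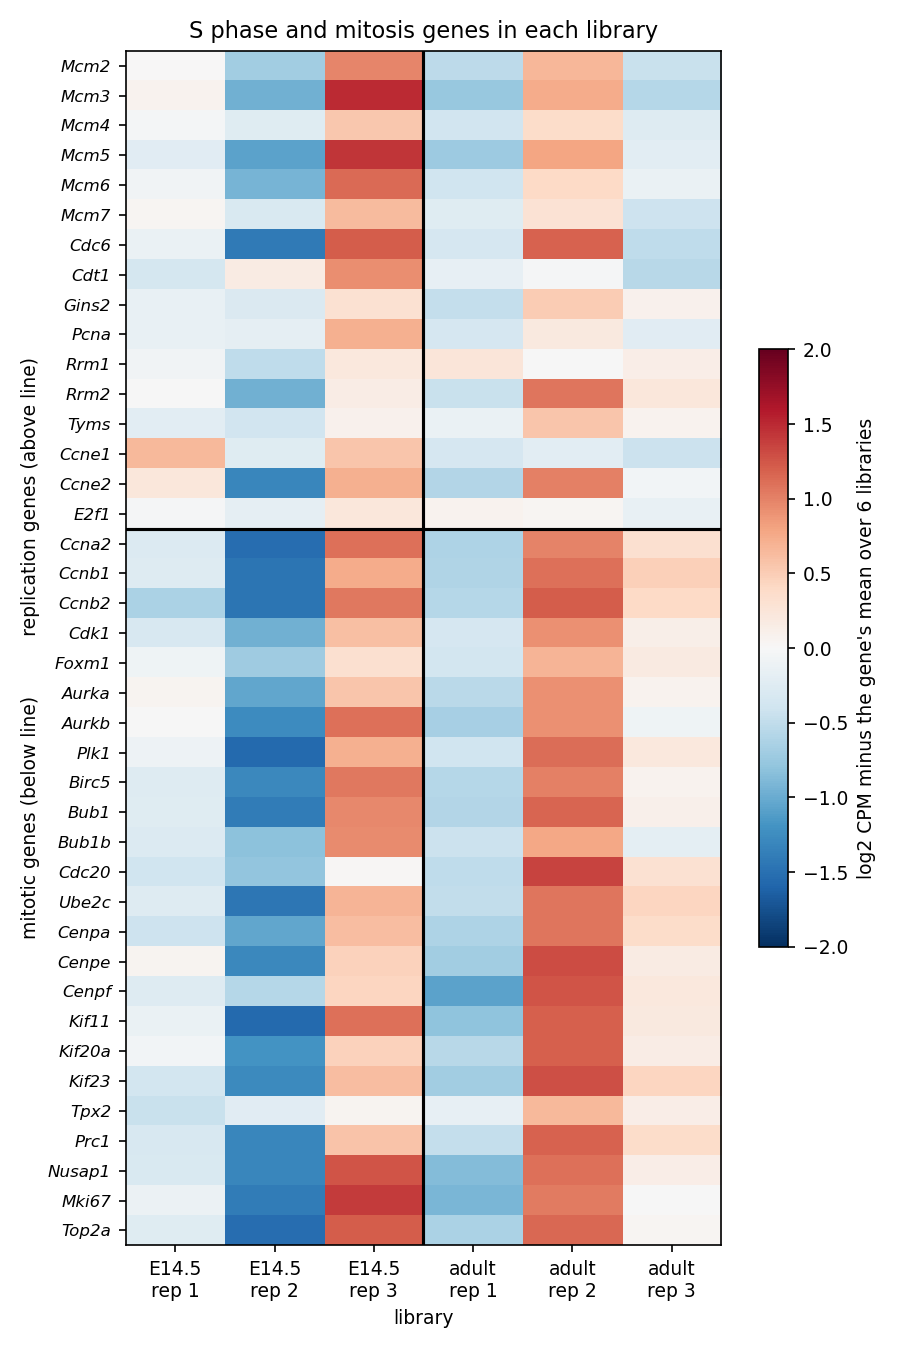
Log2 CPM of each gene minus its own mean over the 6 libraries, with replication genes above the black line, mitotic genes below it, and E14.5 libraries left of adult libraries. E14.5 replicate 3 and adult replicate 2 are high over most genes, and E14.5 replicate 2 is the lowest library for 32 of 40.

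This spread was wider than that of most genes in the same libraries. The SD of log2 CPM between cultures had a median of 0.92 in E14.5 and 0.79 in adult cultures over the 40 genes, beside 0.30 and 0.19 over all genes tested. In each group, 37 of the 40 lay above the median of all genes. The highest over the lowest of the 6 libraries had a median of 5.67-fold for the mitotic genes and 2.43-fold for the replication genes, beside 1.75-fold for all genes, a prior count of 2 having been added before the log. All 24 mitotic genes spanned more than 2-fold, as did 11 of the 16 replication genes. Mki67 had the widest span of the 40, at 6.95-fold, and E2f1 the narrowest, at 1.32-fold.

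**Figure D3:**
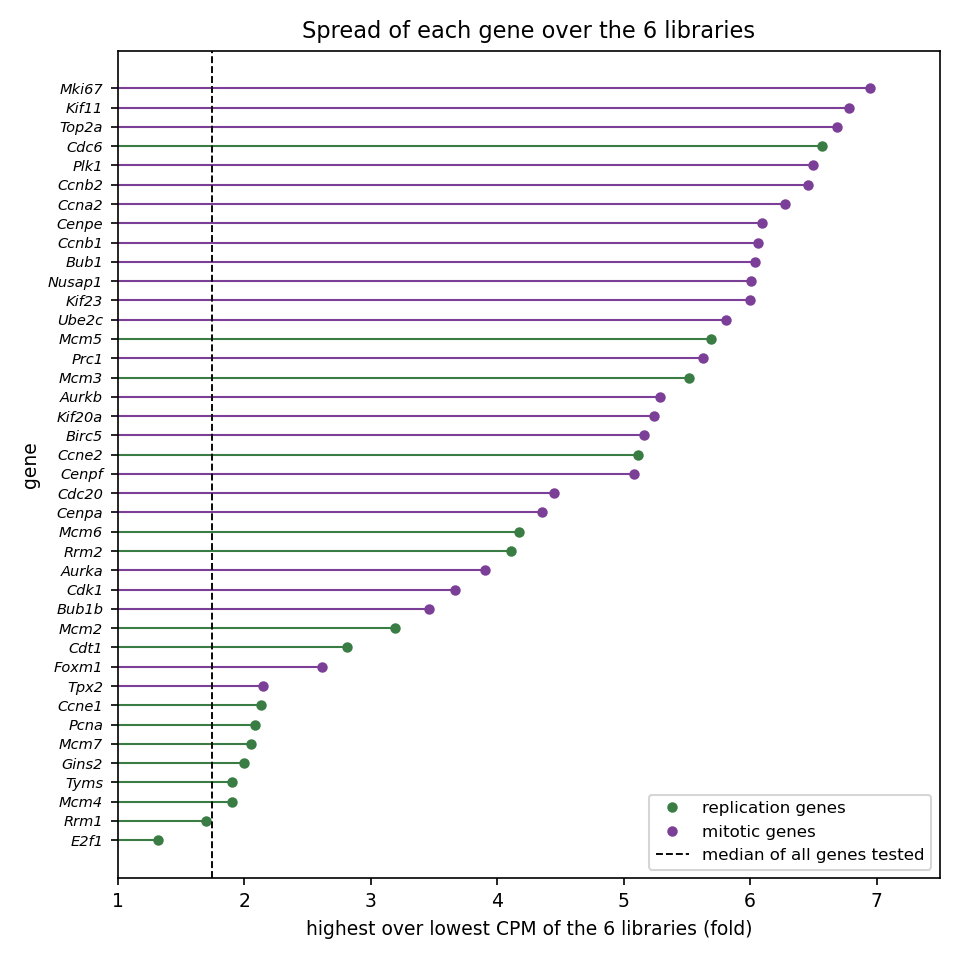
Highest over lowest CPM of the 6 libraries for each gene, on the horizontal axis as a fold, sorted by size, with the dashed line at the median of all genes tested (1.75-fold). Mitotic genes fill most of the upper end and replication genes most of the lower end, from 1.32-fold for E2f1 to 6.95-fold for Mki67.

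The 6 MCM genes encode the ring that unwinds DNA ahead of the fork. Mcm3 (chr1:20802968-20820312 in GENCODE's mm10 annotation, minus strand; promoter above) measured 15.3, 7.45 and 41.1 CPM in the E14.5 libraries, against 8.56, 24.4 and 9.81 CPM in the adult libraries. E14.5 replicate 3 was the highest library and E14.5 replicate 2 the lowest, so the adult libraries lay inside the E14.5 range (log2 fold change 0.58, SE 0.70, adjusted p = 0.750, edgeR). Mcm4 measured 26.3, 22.8 and 39.5 CPM in the E14.5 libraries, against 20.8, 34.9 and 22.6 CPM in the adult libraries (log2 fold change 0.18, SE 0.29, adjusted p = 0.819, edgeR). Mcm2, Mcm5, Mcm6 and Mcm7 had log2 fold changes between 0.26 and 0.33, so all 6 MCM values were positive, with a median of 0.28. The signs of Mcm3 and Mcm4 rested on E14.5 replicate 3: without it, Mcm3 stood at -0.32 and Mcm4 at -0.085. Per kilobase of exon, which allows genes to be compared, the 6 subunits lay between 4.20 (Mcm5) and 7.94 (Mcm6) CPM per kb on average over the 6 libraries. In E14.5 replicate 2, Mcm5 measured 1.65 and Mcm4 6.35 CPM per kb. In E14.5 replicate 3 the same 2 genes measured 9.40 and 11.0 CPM per kb. Mcm4 and Mcm7 spanned 1.90- and 2.06-fold over the libraries, and the other 4 subunits 3.19- to 5.69-fold.

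Cdt1 and Cdc6 load the helicase, and Gins2 belongs to the complex that activates it. Cdt1, whose promoter is also shown above, measured 4.97, 7.11 and 12.2 CPM in the E14.5 libraries, against 5.68, 6.26 and 4.32 CPM in the adult libraries. E14.5 replicate 3 was the highest library and adult replicate 3 the lowest, and its fold change did not pass the test (log2 fold change 0.58, SE 0.38, adjusted p = 0.506, edgeR). Cdc6 was scarce and varied widely, at 1.97, 0.776 and 5.10 CPM in the E14.5 libraries, against 1.70, 5.02 and 1.51 CPM in the adult libraries. It spanned 6.57-fold over the libraries, the widest of the replication genes (log2 fold change -0.063, SE 0.80, adjusted p = 0.979, edgeR). Gins2 had a log2 fold change of -0.11 (SE 0.31).

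The genes of nucleotide supply did not share 1 pattern. Rrm1 encodes the large subunit of ribonucleotide reductase and Rrm2 a small subunit made in S phase. Rrm1 measured 236, 173 and 286 CPM in the E14.5 libraries, against 294, 246 and 270.3 CPM in the adult libraries, a span of 1.70-fold with adult replicate 1 at the top (log2 fold change -0.22, SE 0.20, adjusted p = 0.652, edgeR). Rrm2 measured 30.8, 15.9 and 34.3 CPM in the E14.5 libraries, against 22.7, 65.2 and 36.4 CPM in the adult libraries, highest in adult replicate 2 by 4.11-fold over E14.5 replicate 2 (log2 fold change -0.62, SE 0.45, adjusted p = 0.559, edgeR). Per kilobase, Rrm1 averaged 62.8 and Rrm2 15.6 CPM per kb over the 6 libraries, and Rrm1 had the highest level per length of all 40 genes. It alone made up 38.9% to 47.4% of the replication sum in E14.5 and 39.3% to 58.3% in adult libraries. Tyms, for thymidylate synthase, had a log2 fold change of -0.34 (SE 0.23), while that of the clamp gene Pcna was 0.30 (SE 0.29).

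Ccne1, for cyclin E1, came nearest to a difference between the groups. It lies at chr7:38097984-38107534 on the minus strand and measured 30.6, 16.5 and 28.6 CPM in the E14.5 libraries, against 15.5, 16.8 and 14.4 CPM in the adult libraries. E14.5 replicates 1 and 3 stood above all adult libraries, but E14.5 replicate 2 lay within the adult range, so the groups overlapped. Its mean was 25.3 ± 7.63 CPM over the E14.5 cultures and 15.6 ± 1.23 CPM over the adult ones (SD, n = 3 each), with a log2 fold change of 0.70 (SE 0.25, unadjusted p = 0.0286, adjusted p = 0.217, edgeR). Without E14.5 replicate 2 the adjusted p was 0.0310, and in the other alternatives it ranged from 0.108 to 0.525. Ccne2, the gene of the other E-type cyclin, followed the common order of libraries instead, with a span of 5.11-fold and a log2 fold change of -0.18 (SE 0.63). E2f1, for the transcription factor that switches on S phase genes, measured 17.3, 15.5 and 20.5 CPM in the E14.5 libraries, against 18.5, 17.9 and 15.9 CPM in the adult libraries. Its levels were the steadiest of the 40 (log2 fold change 0.029, SE 0.16, adjusted p = 0.953, edgeR).

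Mki67 and Top2a, for the Ki-67 antigen of cycling cells and topoisomerase II alpha, were among the genes that varied most between cultures. Mki67 (chr7:135689784-135716361, minus strand; promoter above) measured 35.4, 14.5 and 101 CPM in the E14.5 libraries, against 20.4, 78.5 and 37.9 CPM in the adult libraries. Within E14.5 the highest library exceeded the lowest 6.95-fold, and within the adult group 3.85-fold; between the groups it did not pass the test (log2 fold change 0.14, SE 0.78, adjusted p = 0.954, edgeR). Top2a measured 33.5, 13.7 and 91.6 CPM in the E14.5 libraries, against 25.6, 87.8 and 40.7 CPM in the adult libraries, the same order of libraries as Mki67 within each group (log2 fold change -0.15, SE 0.75, adjusted p = 0.949, edgeR). The sign of both values changed with single libraries: Mki67 stood at -0.87 without E14.5 replicate 3 and at 0.78 without adult replicate 2.

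The cyclins that drive mitosis and their kinase were all on the negative side. Ccnb1, for cyclin B1, measured 5.41, 2.33 and 11.0 CPM in the E14.5 libraries, against 4.24, 14.1 and 9.04 CPM in the adult libraries. Adult replicate 2 was 6.06-fold above E14.5 replicate 2, while the other 4 libraries lay between them (log2 fold change -0.55, SE 0.66, adjusted p = 0.749, edgeR). Ccna2, for cyclin A2, which acts from S phase to early mitosis, measured 12.6, 5.24 and 32.9 CPM in the E14.5 libraries, against 9.96, 30.3 and 19.2 CPM in the adult libraries, with E14.5 replicate 3 at the top (log2 fold change -0.23, SE 0.70, adjusted p = 0.919, edgeR). Ccnb2, Cdk1 and the transcription factor gene Foxm1 had log2 fold changes of -0.48, -0.40 and -0.32, with SE of 0.74, 0.48 and 0.36. Foxm1, which drives transcription of genes of G2 and mitosis, spanned 2.61-fold over the libraries, less than the 4 others of this set, which spanned 3.66- to 6.46-fold.

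Among the kinases of the spindle and the passenger complex, Plk1 (chr7:122159439-122169873, plus strand; promoter above) measured 7.35, 2.64 and 12.9 CPM in the E14.5 libraries, against 5.94, 17.1 and 9.11 CPM in the adult libraries. Adult replicate 2 was again highest and E14.5 replicate 2 lowest (log2 fold change -0.49, SE 0.64, adjusted p = 0.772, edgeR). Aurkb, for the kinase of the chromosomal passenger complex, measured 4.63, 1.89 and 10.0 CPM in the E14.5 libraries, against 2.92, 8.84 and 4.36 CPM in the adult libraries, with E14.5 replicate 3 highest and E14.5 replicate 2 lowest (log2 fold change 0.040, SE 0.69, adjusted p = 0.983, edgeR). Aurka, for the centrosomal aurora kinase, and Birc5, for the passenger subunit survivin, had log2 fold changes of -0.27 (SE 0.52) and -0.16 (SE 0.68).

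Cdc20, for the activator of the anaphase-promoting complex and a target of the spindle checkpoint, had the lowest log2 fold change of the 40. The gene lies at chr4:118432901-118437352 on the minus strand (promoter above) and measured 9.91, 7.54 and 13.2 CPM in the E14.5 libraries, against 9.20, 33.5 and 16.2 CPM in the adult libraries. Adult replicates 2 and 3 were above all E14.5 libraries, but adult replicate 1 lay among them, so the groups overlapped (log2 fold change -0.94, SE 0.49, adjusted p = 0.393, edgeR). Its highest culture exceeded its lowest 1.75-fold within E14.5 and 3.64-fold within the adult group. Bub1b, for the checkpoint protein BUBR1, measured 8.29, 5.65 and 19.5 CPM in the E14.5 libraries, against 7.46, 17.3 and 8.75 CPM in the adult libraries, and averaged 11.2 ± 7.37 CPM over the E14.5 cultures and 11.2 ± 5.34 CPM over the adult ones (SD, n = 3 each; log2 fold change 0.00083, SE 0.55, adjusted p = 1.000, edgeR). Bub1 and Ube2c, for a checkpoint kinase and the ubiquitin-conjugating enzyme of the complex, had log2 fold changes of -0.33 (SE 0.70) and -0.57 (SE 0.61).

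Genes of centromeres, spindle and cytokinesis made up the rest. Cenpe, for a kinetochore motor, measured 16.1, 6.30 and 21.5 CPM in the E14.5 libraries, against 9.54, 38.4 and 17.5 CPM in the adult libraries (log2 fold change -0.57, SE 0.62, adjusted p = 0.719, edgeR). Cenpf, for a large kinetochore protein, measured 8.94, 7.20 and 14.4 CPM in the E14.5 libraries, against 5.07, 25.8 and 12.4 CPM in the adult libraries (log2 fold change -0.50, SE 0.59, adjusted p = 0.746, edgeR). In Cenpf the lowest library was adult replicate 1 rather than E14.5 replicate 2. Kif23, for a kinesin of the midzone and midbody, measured 7.69, 4.07 and 15.3 CPM in the E14.5 libraries, against 6.10, 24.4 and 13.4 CPM in the adult libraries (log2 fold change -0.70, SE 0.64, adjusted p = 0.660, edgeR). Nusap1, for a protein that bundles spindle microtubules, measured 5.57, 2.76 and 16.6 CPM in the E14.5 libraries, against 3.75, 15.0 and 7.59 CPM in the adult libraries (log2 fold change -0.077, SE 0.77, adjusted p = 0.974, edgeR). Both followed the common order of libraries, with E14.5 replicate 3 above adult replicate 2 for Nusap1 and below it for Kif23. Cenpa, for the centromeric histone, and the spindle genes Kif11, Kif20a, Prc1 and Tpx2 had log2 fold changes between -0.67 and -0.23. Tpx2, for an activator of aurora A, spanned 2.15-fold, the least of the mitotic genes.

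Replication and mitotic genes were then set against each other within each library. The replication genes summed to 507, 366 and 736 CPM in the E14.5 libraries, against 504, 626 and 508 CPM in the adult libraries. The mitotic genes summed to 306, 168 and 631 CPM in the E14.5 libraries, against 245, 751 and 406 CPM in the adult libraries. The highest over the lowest culture was 2.01-fold in E14.5 and 1.24-fold in adults for replication, and 3.76-fold and 3.07-fold for mitosis. Rrm1, the largest part of the replication sum, narrowed its span: without it, replication spanned 2.34-fold in E14.5 and 1.81-fold in adults. E14.5 replicate 3 had the highest replication sum of all libraries and adult replicate 2 the highest mitotic sum. By single genes, E14.5 replicate 3 exceeded adult replicate 2 in 12 of 16 replication but 7 of 24 mitotic genes.

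**Figure D4:**
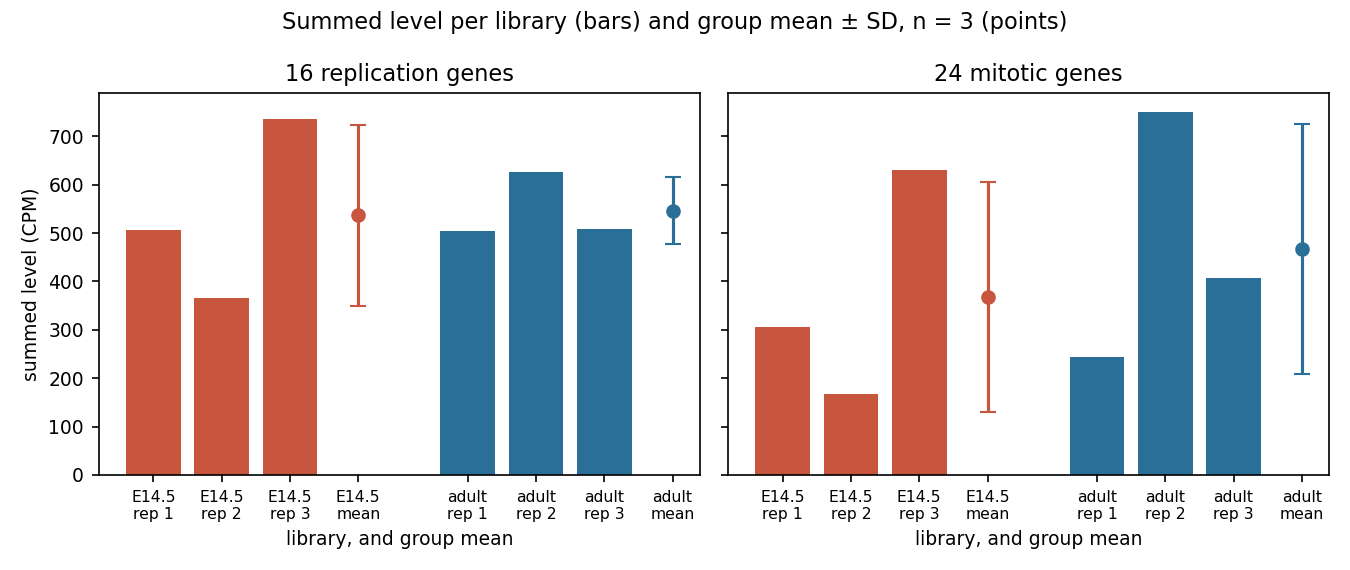
Summed CPM per library (bars) of the 16 replication genes on the left and the 24 mitotic genes on the right, with group means ± SD (points, n = 3). E14.5 replicate 3 has the highest replication bar at 736 CPM and adult replicate 2 the highest mitotic bar at 751 CPM, and the groups overlap in both.

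The log2 ratio of the mitotic over the replication sum was -0.73, -1.12 and -0.22 in E14.5 replicates 1, 2 and 3, against -1.04, 0.26 and -0.32 in adult replicates 1, 2 and 3. The mean was -0.69 ± 0.45 for E14.5 and -0.37 ± 0.65 for adult cultures (SD, n = 3 each), a difference smaller than the spread within either group. Without Rrm1, a choice made after seeing the data, the ratio was 0.18, -0.20 and 0.49 in E14.5 replicates 1, 2 and 3, against 0.22, 0.98 and 0.77 in adult replicates 1, 2 and 3. The groups then overlapped only where E14.5 replicate 3 exceeded adult replicate 1. The difference of -0.50 between the means, 0.16 ± 0.34 for E14.5 and 0.66 ± 0.40 for adult cultures, was larger than the SD in either group. With all replication genes, Rrm1 included, the difference was -0.32. With all of them but without adult replicate 2, the difference was -0.0069. Since the genes were chosen with earlier results known, no p is given for it.

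**Figure D5:**
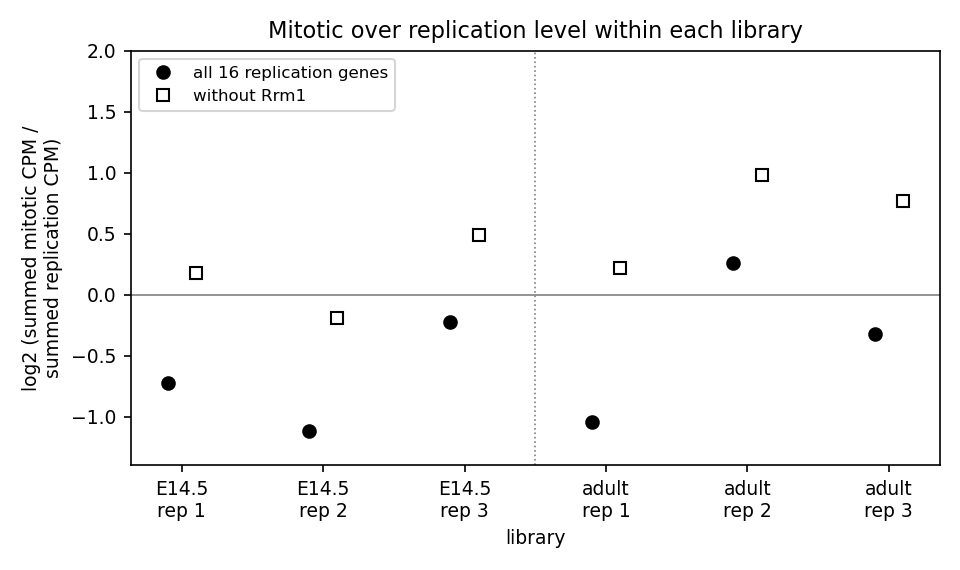
Log2 of summed mitotic over summed replication CPM in each library, with all 16 replication genes (filled circles) and without Rrm1 (open squares). Adult replicate 2 is highest at 0.26 and E14.5 replicate 2 lowest at -1.12, both with all genes, and the groups overlap.

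The 6 titles carry 3 prefixes of unstated meaning, so that each E14.5 library has an adult counterpart with the same prefix. Within prefixes the direction was mixed. E14.5 replicate 1 exceeded adult replicate 1 in 34 of 40 genes, by a median of 0.33 on the log2 scale, and E14.5 replicate 3 exceeded adult replicate 3 in 37, by 0.71. E14.5 replicate 2 exceeded adult replicate 2 only in Cdt1, with a median of -2.07. Of all 13478 genes tested, the E14.5 library was higher in 6732, 6539 and 6948 for replicates 1, 2 and 3. The medians over all genes were -0.00015, -0.021 and 0.018. Most of the 40 genes shared 1 order of libraries, so their counts are not 40 separate agreements. For mitotic genes alone the medians were 0.34, -2.42 and 0.48 in replicates 1, 2 and 3, and for replication genes 0.33, -0.86 and 0.97. The mitotic median was thus negative in the libraries of 1 prefix and positive in those of the other 2. Without adult replicate 2, 8 of 24 mitotic genes were negative, with a median of 0.079.

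Other genes of the same processes gave similar values. A list of 46 more replication genes, such as polymerases, RFC and RPA subunits, had 0 called genes by edgeR and 0 by DESeq2, a median log2 fold change of 0.085 and 28 positive values. It summed to 502, 405 and 795 CPM in the E14.5 libraries, against 430.3, 716 and 476 CPM in the adult libraries. Rpa1, for a subunit of the single-strand binding complex, had the highest CPM of that list and measured 60.0 ± 11.3 CPM over the E14.5 cultures and 74.1 ± 8.74 CPM over the adult ones (SD, n = 3 each; log2 fold change -0.30, SE 0.17, adjusted p = 0.421, edgeR). Rfc1, for the large subunit of the clamp loader, measured 38.3 ± 7.55 CPM over the E14.5 cultures and 38.3 ± 6.85 CPM over the adult ones (adjusted p = 0.998, edgeR). A list of 52 tested mitotic genes, such as kinesins and condensins, had 0 called genes by edgeR and 1 by DESeq2, a median of -0.23 and 38 negative values. It summed to 502, 336 and 822 CPM in the E14.5 libraries, against 447, 923 and 622 CPM in the adult libraries. At an unadjusted p under 0.05 these lists had 0 and 1 genes, against 17.9% of all genes. The 1 gene was Anln, for the contractile ring protein anillin, which measured 54.9, 51.4 and 76.2 CPM in the E14.5 libraries, against 95.0, 110.5 and 116 CPM in the adult libraries. All its adult libraries lay above all its E14.5 libraries, yet it missed the threshold (log2 fold change -0.82, SE 0.18, adjusted p = 0.0991, edgeR), while its adjusted p in DESeq2 was 0.00208. Its adjusted p in the other alternatives ranged from 0.0539 to 0.358. Smc4, a condensin gene, measured 44.5 ± 15.4 CPM over the E14.5 cultures and 56.9 ± 10.9 CPM over the adult ones (adjusted p = 0.596, edgeR).

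Lists of other cell cycle regulators had smaller median spreads between cultures than the 40 genes, though single genes in them varied widely. Of 18 tested genes for pocket proteins, DREAM subunits and other E2F factors, 0 were called by edgeR (1 at an unadjusted p under 0.05) and 0 by DESeq2, the median SD of log2 CPM was 0.24 in E14.5 and 0.23 in adults, their log2 fold changes had a median of 0.053, and the list summed to 517, 472 and 544 CPM in the E14.5 libraries, against 536, 551 and 494 CPM in the adult libraries. The 1 gene, named after its values were seen, was E2f2, for an activator E2F, at 1.81, 1.24 and 7.11 CPM in the E14.5 libraries, against 1.36, 0.646 and 0.738 CPM in the adult libraries (log2 fold change 1.88, SE 0.76, adjusted p = 0.272, edgeR). Its 2 members of highest CPM were Rbbp4, for a chromatin protein that DREAM contains, at 125 ± 13.1 CPM over the E14.5 cultures and 120.2 ± 13.0 CPM over the adult ones, and E2f6, for a repressor E2F, at 61.7 ± 6.21 CPM over the E14.5 cultures and 67.0 ± 3.30 CPM over the adult ones (SD, n = 3 each). Of 15 subunits and inhibitors of the anaphase-promoting complex, 0 were called by edgeR (0 at an unadjusted p under 0.05) and 0 by DESeq2, with a median SD of log2 CPM of 0.15 in E14.5 and 0.086 in adults. Anapc5 measured 208 ± 21.4 CPM over the E14.5 cultures and 219.8 ± 8.49 CPM over the adult ones, and Anapc1 161 ± 8.39 CPM over the E14.5 cultures and 194 ± 17.0 CPM over the adult ones. Among 13 CDK inhibitors, D cyclins and their kinases, edgeR called 1 (6 at an unadjusted p under 0.05, against 17.9% of all genes), DESeq2 3 and limma-voom 1 (7 at an unadjusted p under 0.05), and the groups did not overlap for 4, against 24.1% of all genes. The median SD of log2 CPM of these 13 genes was 0.46 in E14.5 and 0.22 in adults, beside 0.30 and 0.19 for all genes. In E14.5 the SD was 1.29 for E2f2 and 0.999 for Cdkn1c. The gene that edgeR called was Cdkn1c, for the inhibitor p57, and its levels did not follow the order of the 40 genes. It measured 561, 193 and 153 CPM in the E14.5 libraries, against 3.82, 3.38 and 3.87 CPM in the adult libraries (log2 fold change 6.35, SE 0.62, adjusted p = 0.0222, edgeR). E14.5 replicate 3, the E14.5 library highest in the 40 genes, was lowest in Cdkn1c among the 3. The adjusted p of Cdkn1c was 0.0705, 0.0628 and 0.141 without adult replicates 1, 2 and 3. DESeq2 also called Cdk4 and Cdk6, for the kinases that D cyclins activate, named after their values were seen. Cdk4 measured 222, 213 and 207 CPM in the E14.5 libraries, against 163, 175 and 156 CPM in the adult libraries (edgeR adjusted p = 0.137), and Cdk6 49.0, 35.5 and 38.0 CPM in the E14.5 libraries, against 19.0, 27.7 and 21.8 CPM in the adult libraries (edgeR adjusted p = 0.107), with all E14.5 libraries above all adult ones in both. Ccnd2, for a D cyclin, measured 1505 ± 235 CPM over the E14.5 cultures and 1159.5 ± 163 CPM over the adult ones, and Cdkn1a, for the inhibitor p21, 1197 ± 241 CPM over the E14.5 cultures and 781 ± 211 CPM over the adult ones (adjusted p = 0.347 and 0.278, edgeR). By library, Cdkn1a stood at 1294, 1375 and 922 CPM in the E14.5 libraries, against 999.9, 579.8 and 764 CPM in the adult libraries, lowest in each group in the library with the highest levels of the 40 genes.

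Each of the 2 libraries that led the 40 genes also led the markers of 1 other cell type. Macrophage and leukocyte markers had a row for 15 of 16 and counts for 14 in each library, though not always the same 14. They summed to 258, 484 and 2987 CPM in the E14.5 libraries, against 209, 25.9 and 54.0 CPM in the adult libraries. Endothelial markers, with a row for all 13, summed to 67.2, 22.1 and 35.8 CPM in the E14.5 libraries, against 37.6, 2044 and 480.5 CPM in the adult libraries. E14.5 replicate 3 was therefore the highest library in leukocyte markers and adult replicate 2 the highest in endothelial ones. Adult replicate 2 was the lowest in leukocyte markers. Emcn alone gave 1073 CPM of its endothelial sum, while Vwf, Kdr and Lyve1 were highest in other libraries. Mesothelial markers had a row for 7 of 8. They summed to 159.7, 785 and 149.8 CPM in the E14.5 libraries, against 1509.6, 637 and 790.2 CPM in the adult libraries. Their sum was highest within each group in the library lowest in the 40 genes. Among the adult libraries, however, Gpm6a, Lrrn4 and Krt19 were highest in adult replicate 2, the adult library highest in the 40 genes. The epithelial sum was highest in E14.5 replicate 1, at 62.7 CPM, and the enteric neural and glial sum in adult replicate 3, at 312 CPM. Krt20 alone gave 61.4 CPM of that epithelial sum, while Cdh1, Cldn3 and Vil1 were highest in other libraries, each under 1 CPM. Uchl1 gave 220 CPM of the enteric sum but was itself highest in E14.5 replicate 2, at 263 CPM. The T cell marker Cd3e had 0 counts in 5 libraries and 1 in the other, and the endothelial gene Tie1 had 0 counts in E14.5 replicates 1 and 2. The part of these cells in the levels of the 40 genes was not tested. With both libraries left out, a choice made after seeing the data, 0 of the 40 genes were called, the mitotic median was -0.49, with 24 of 24 values negative, and the replication median was -0.054. In that fit, with 2 libraries a group, the groups did not overlap for 7 of the 40 genes, against 49.1% of all genes.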

How the data were processed

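Values are raw counts: the authors' deposited tables, 1 for each library, list whole read counts by gene symbol and no normalized values. The submitters' processing notes name STAR and mm10; the version and annotation were not given in the sources used here. Per the labels, poly(A) libraries were stranded and gave single reads of 75 bp. Of the unstranded, forward and reverse columns the reverse one was used, as forward counts were 1.33% to 1.69% of stranded gene counts. The 4 rows without a gene name held 17.4% to 19.8% of reads and were dropped. Multimapping reads are among these, which makes genes with near-identical copies uncertain.

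Groups came from the stage label, and replicates were numbered in accession order. Counts were analysed in R 4.3.3 with edgeR 4.0.16: filterByExpr, TMM, the robust quasi-likelihood test and Benjamini-Hochberg adjustment over all 13478 genes at 0.05. The approximate SE is |log2 fold change| / √F. P-values reflect only how these cultures spread, which may be technical. The steps were run on simulated counts with known changes as a check of the code. The share of those changes recovered is not given here. Exon lengths and positions are from GENCODE M21 (GRCm38, the assembly of mm10), the lengths as the union of exons of basic transcripts. Alternatives were DESeq2 1.42.0, limma-voom (limma 3.58.1), other scalings and filters, unstranded counts, a block for the title prefix, and leaving out single libraries. Those called chosen after seeing the data were added later.

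The 40 genes, the other lists and the tests were chosen with earlier results of these data known. In each of 10 role groups the text gives in full the genes with the largest and the smallest absolute log2 fold change, and from each other list up to 3 called genes a direction and the 2 of highest CPM not called.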

Additional observations from a re-analysis of the deposited data

How the results depend on the processing

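The count of 0 called genes among the 40 was the same under every alternative but 1: without E14.5 replicate 2 it was 1, Ccne1. With 1 library left out, the count of genes whose groups do not overlap ranged from 0 to 4, where 28% to 40.8% of all genes did not overlap. It was 7 without E14.5 replicate 3 and adult replicate 2 together, where 49.1% of all genes did not. The median log2 fold change of the replication genes ranged from -0.31 (without E14.5 replicate 3) to 0.48 (without adult replicate 2), with 2 to 13 of 16 values positive. That of the mitotic genes ranged from -1.08 to 0.079 in the same fits, with 8 to 24 of 24 values negative. Over all genes 146 were called, against 1427 with DESeq2, 2 with the title prefix as a block, 36 without E14.5 replicate 3 and adult replicate 2, and 3 to 471 with 1 library left out. The block called 0 of the 40, with medians of 0.12 for replication and -0.40 for mitotic genes, and Cdkn1c had adjusted p = 0.0938 in it. Over all genes, deviations from the group means of libraries that share a prefix correlated at -0.14, -0.23 and -0.088. With 3 libraries a group, such values cannot tell whether a prefix marks a pair.

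Signs changed for genes near 0 and for some further away, such as Mcm3 at 0.58, Cenpe at -0.57, Cenpf at -0.50 and Plk1 at -0.49. With 1 library left out, log2 fold changes ranged from -0.71 to 0.60 for Aurkb, -0.68 to 0.46 for Bub1b, -1.15 to 0.21 for Ccna2, -0.99 to 0.70 for Cdc6, -0.96 to 0.11 for Cenpe, -0.90 to 0.22 for Cenpf, -0.083 to 0.12 for E2f1, -0.32 to 1.21 for Mcm3, -0.085 to 0.44 for Mcm4, -0.87 to 0.78 for Mki67, -1.07 to 0.55 for Nusap1, -1.10 to 0.017 for Plk1, -0.024 to 0.13 for Rbbp4, -0.15 to 0.16 for Rfc1 and -1.12 to 0.48 for Top2a. Without E14.5 replicate 3 and adult replicate 2, the values were -0.069 for E2f1, -0.17 for Aurkb, -0.23 for Bub1b, -0.24 for Mki67 and -0.0018 for Rfc1. With limma-voom they were -0.063 for Aurkb, -0.040 for Bub1b and -0.038 for Mki67, and with the block -0.032, -0.080 and -0.0014 for Aurkb, Bub1b and Rfc1. Bub1b was -0.0013 with DESeq2 size factors, -0.0021 with DESeq2 and -0.0035 with unstranded counts, and Rbbp4 was -0.081 with the last. The cause was not tested. With 3 cultures a group and SE up to 0.80, the spread between cultures limits these comparisons. The 40 genes each had 25 or more counts in every library.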
